A study of Mus musculus with 18 samples.

Results

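The imprinted genes of the mouse were followed through the differentiation of embryonic stem cells (ESCs) into embryoid bodies (EBs) in TKO, *Dnmt1*-/- and wild type (wt) lines. A list of 44 imprinted genes was matched by gene symbol to the probe sets of the Affymetrix Mouse Gene 1.0 ST array, and 36 of them had a probe set that names no other gene, out of 19938 such genes on the array. TKO ESCs carry deletions of all 3 active DNA methyltransferase genes, *Dnmt1*, *Dnmt3a* and *Dnmt3b*, *Dnmt1*-/- ESCs lack the maintenance methyltransferase only, and wt ESCs have intact copies. All lines are J1 cells of the 129Sv/Jae strain with no other treatment, and each genotype is represented by 1 line, so genotype and line cannot be told apart. Cells were harvested undifferentiated (day 0) or as hanging drop EBs at day 4 and day 16, with 2 biological replicates for each genotype and day, 18 arrays in all.

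Imprinted genes are read from only the copy inherited from the father or only the copy inherited from the mother. The choice is written into the germline as DNA methylation of a control region on a single parental chromosome, which is then kept through development by DNMT1. Loss of this methylation is known to switch off some members of a cluster (*Igf2*, *Igf2r*, *Cdkn1c*, *Dlk1*) and to make others active from both copies (*H19*, *Snrpn*, *Peg3*, *Meg3*). Many of these genes set the growth of the embryo and placenta, the paternal ones mostly promoting it and the maternal ones mostly restraining it. The arrays measured total transcript, not the parental copies, in a line of a single inbred strain.

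By textbook knowledge 21 members are expressed from the paternal copy, 21 from the maternal copy, and *Grb10* and *Gnas* from either copy depending on tissue or transcript. Whether a member is read from a single copy in these cells was not measured. *Snrpn*, *Mirg*, *Gnas* and *Ube3a* were found only on probe sets that also name other genes, and *H19*, *Kcnq1ot1*, *Zrsr1* and *Slc22a3* had no match in the probe annotation used. These 8 genes are not analysed here, which leaves 18 paternal genes, 17 maternal genes and *Grb10*. Values are log2 signals, and a gene was called when its log2 fold change was at least 1 in size (2-fold) with a Benjamini-Hochberg adjusted p under 0.05 in limma, adjusted over all probe sets of the comparison. Each error below is the standard error of the fit. With 2 against 2 arrays an exact permutation test of a single gene cannot go below p = 0.333, so calls rest on the fit across all probe sets. Comparisons of both mutants with wt share the wt arrays. In bulk RNA, fewer cells of a type and less RNA per cell cannot be told apart.

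The promoters of 4 of the 5 genes called against wt in day 16 *Dnmt1*-/- EBs are shown. Their CpG sites, the targets of the deleted enzymes, stand in capitals. *Igf2*, also called there, has several windows and is not shown. The sequences are RefSeq windows around the annotated start (mouse GRCm38.p6), read 5′ to 3′ on the strand of the gene. They were not matched to the control regions that carry the imprint. *Dlk1* lies at chr12:109452573-109452872 (plus strand), *Plagl1* at chr10:13090582-13090881 (plus strand), *Zim1* at chr7:6696383-6696682 (minus strand) and *Phlda2* at chr7:143502475-143502774 (minus strand).
Dlk1: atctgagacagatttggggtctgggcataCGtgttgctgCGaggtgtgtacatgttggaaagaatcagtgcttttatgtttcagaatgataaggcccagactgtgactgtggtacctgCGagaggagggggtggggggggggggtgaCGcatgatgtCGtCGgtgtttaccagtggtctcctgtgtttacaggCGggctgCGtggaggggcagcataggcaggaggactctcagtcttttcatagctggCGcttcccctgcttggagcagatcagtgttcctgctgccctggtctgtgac
Plagl1: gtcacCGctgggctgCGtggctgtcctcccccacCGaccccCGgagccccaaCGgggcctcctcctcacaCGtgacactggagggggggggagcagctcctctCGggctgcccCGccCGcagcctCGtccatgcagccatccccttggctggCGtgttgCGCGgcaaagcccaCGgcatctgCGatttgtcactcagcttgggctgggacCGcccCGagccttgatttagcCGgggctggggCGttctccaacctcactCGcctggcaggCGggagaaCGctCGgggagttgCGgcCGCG
Zim1: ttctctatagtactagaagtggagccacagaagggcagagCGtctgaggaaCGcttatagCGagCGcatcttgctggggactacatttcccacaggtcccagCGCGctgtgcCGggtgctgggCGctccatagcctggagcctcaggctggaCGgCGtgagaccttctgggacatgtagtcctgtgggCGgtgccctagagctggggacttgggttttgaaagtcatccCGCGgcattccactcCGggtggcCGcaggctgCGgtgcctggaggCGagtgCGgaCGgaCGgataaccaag
Phlda2: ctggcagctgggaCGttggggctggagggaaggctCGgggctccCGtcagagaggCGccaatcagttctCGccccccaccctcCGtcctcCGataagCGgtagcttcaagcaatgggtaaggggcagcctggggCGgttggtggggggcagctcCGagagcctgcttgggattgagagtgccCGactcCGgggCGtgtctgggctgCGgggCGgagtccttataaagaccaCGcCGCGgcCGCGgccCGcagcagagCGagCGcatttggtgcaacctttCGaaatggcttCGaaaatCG

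The *Plagl1* and *Phlda2* windows held 26 CpG sites each and the *Zim1* window held 20, whereas the *Dlk1* window held 9. RefSeq gave 57 promoters for 37 of the 44 members, with a median of 13 CpG sites against 7 over all 32851 promoters. TGCCGC, the hexamer bound by the imprint-protecting factor ZFP57 when methylated, was found on either strand in 14 of the 57 (24.6%) and in 11.6% of all promoters. Among the 4 shown, *Plagl1* and *Zim1* each held 1 match. The hexamer holds a CpG itself, and the shares were not adjusted for the CpG number of the windows. Some windows of the same gene overlap. These counts describe the letters of the windows only, and the methylation of these promoters was not measured here.

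Fewer imprinted genes were called in TKO than in wt cells as ESCs became EBs. Between day 0 and day 16, 4 of the 36 rose and 1 fell in TKO cells, where 2.34% and 0.762% of all genes tested were called higher and lower. In *Dnmt1*-/- cells 15 rose and none fell (6.46% and 2.69% of all genes). In wt cells 17 rose and 2 fell (8.65% and 5.67%). The median log2 change of the 36 members was 0.25 in TKO, 0.61 in *Dnmt1*-/- and 0.94 in wt cells, against -0.01, -0.10 and -0.06 over all genes.

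Few members were called between genotypes in undifferentiated ESCs. With 2 arrays per group, a member that was not called may still differ. No member was called between TKO and *Dnmt1*-/- ESCs (0% of all genes higher, 0.00502% lower) or between *Dnmt1*-/- and wt ESCs (0.145% higher, 0.0251% lower). Limma gave an unadjusted p under 0.05 for 2 and 8 of the 36 members in these comparisons. Among all 19938 genes, 607 and 1054 had such a p. *Nnat* alone was called between TKO and wt ESCs, as lower (0.196% of all genes higher, 0.12% lower). There limma gave an unadjusted p under 0.05 for 10 members and for 1907 of all genes.

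At day 4, TKO EBs had 4 members higher and 6 lower than wt EBs (2.47% and 1.13% of all genes), and *Dnmt1*-/- EBs had 1 higher and 3 lower (0.416% and 0.0351%). At day 16, TKO EBs had 2 higher and 13 lower than wt EBs (2.69% and 5.07%), and *Dnmt1*-/- EBs had 1 higher and 4 lower (1.49% and 2.15%). Directly compared, TKO EBs had 3 members higher and 3 lower than *Dnmt1*-/- EBs at day 4 (0.818% and 0.431%) and 9 lower and none higher at day 16 (0.166% higher, 1.46% lower). With only the arrays compared in the fit, 0 of these day 4 calls and 1 of the day 16 calls (*Igf2*) were left, and day 16 TKO and *Dnmt1*-/- EBs had 8 and 1 members called against wt. The median member differed from wt by -0.52 in day 16 TKO EBs and by -0.16 in day 16 *Dnmt1*-/- EBs, against 0.03 and -0.05 over all genes.

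**Figure D1:**
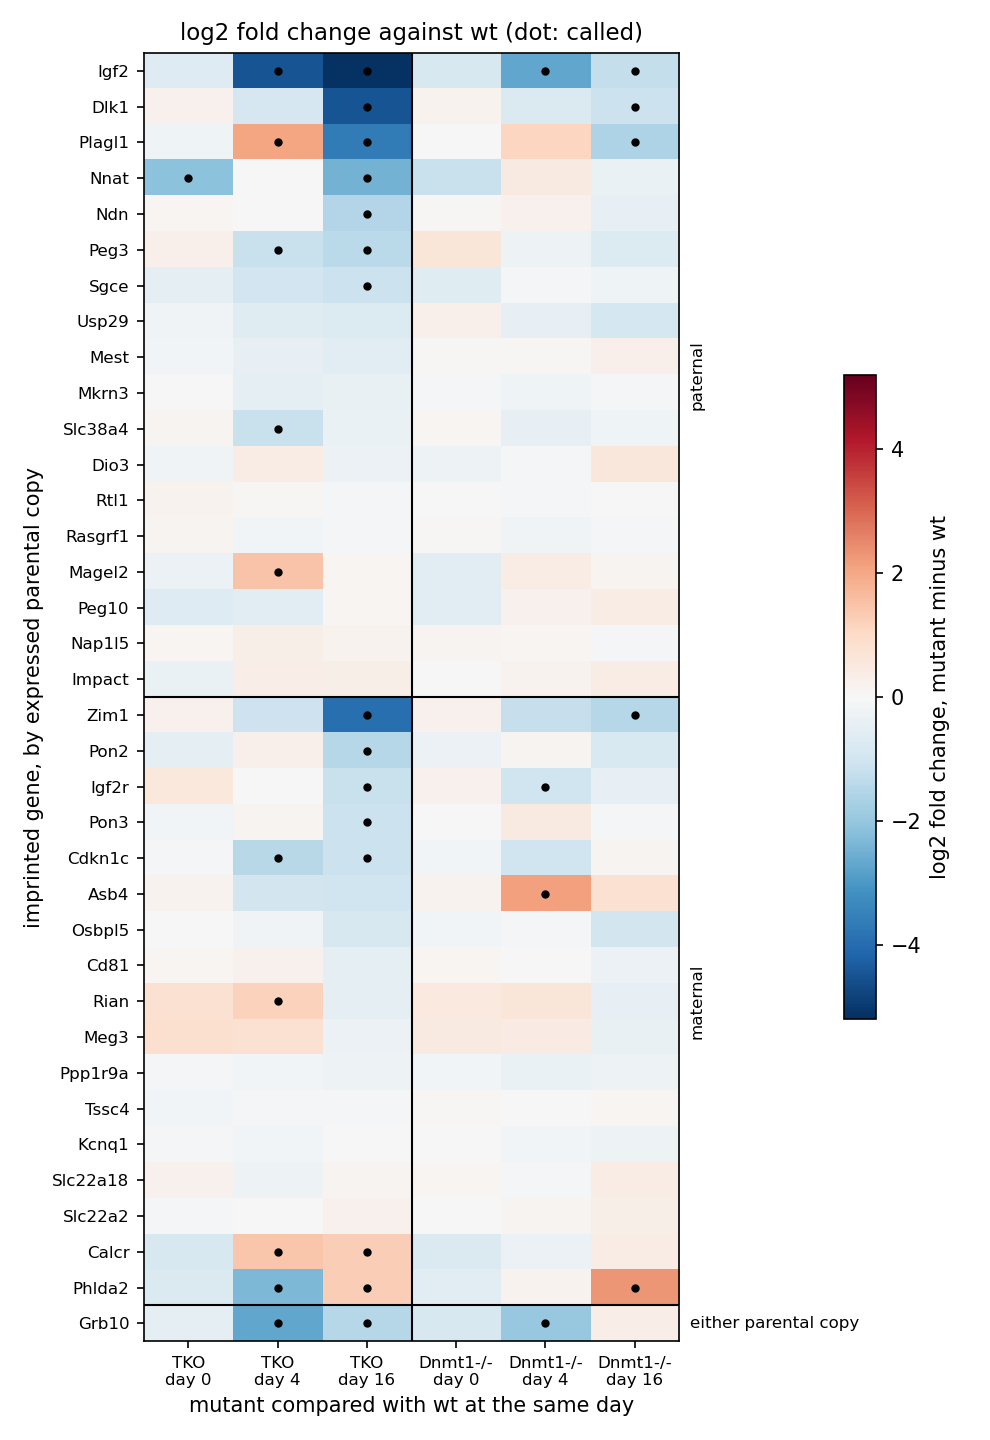
Colour gives the log2 fold change of each of the 36 imprinted genes in TKO and *Dnmt1*-/- cells against wt at day 0, 4 and 16, with a dot where the gene was called; rows are grouped by the expressed parental copy. Among the darkest cells are the lower levels of *Igf2*, *Dlk1*, *Zim1* and *Plagl1* in day 16 TKO EBs (log2 fold change -5.14, -4.50, -3.94 and -3.63).

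The calls fell on genes of both parental origins. In day 16 TKO EBs 7 of 18 paternal genes were lower and none higher, and 5 of 17 maternal genes were lower and 2 higher, with medians of -0.45 and -0.51. Of all genes, 5.07% were called lower and 2.69% higher in these EBs than in wt EBs. The members were also split by the chromosome they are expressed from by textbook knowledge, which was not measured in these cells. Of 20 genes assigned to the chromosome that carries the methyl mark, 7 were lower and 2 higher (median -0.40). Of 15 genes assigned to the unmarked chromosome 5 were lower and none higher (median -0.51). In day 16 *Dnmt1*-/- EBs the marked chromosome gave 3 lower and 1 higher of 20 genes and the unmarked one gave 1 lower of 15. Of all genes, 2.15% were called lower and 1.49% higher there.

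*Igf2* and *Igf2r* encode a fetal growth factor and the receptor that clears it. *Igf2*, a paternal gene on chromosome 7, read 6.55 and 6.80 in TKO ESCs, 6.46 and 6.53 in *Dnmt1*-/- ESCs, and 7.48 and 7.19 in wt ESCs. At day 4 its signals were 6.09 and 6.37 in TKO EBs, 7.35 and 8.68 in *Dnmt1*-/- EBs, and 10.81 and 10.64 in wt EBs. At day 16 they were 6.99 and 6.71 in TKO EBs, 10.77 and 10.70 in *Dnmt1*-/- EBs, and 11.84 and 12.14 in wt EBs. TKO cells thus stayed at the ESC level throughout, *Dnmt1*-/- EBs lay between TKO and wt EBs, and the 3 genotypes did not overlap at day 4 or day 16. The log2 fold change against wt in TKO EBs was -4.49 ± 0.31 at day 4 (limma adjusted p = 9.2e-06) and -5.14 ± 0.31 at day 16 (adjusted p = 7e-07). In *Dnmt1*-/- EBs it was -2.70 ± 0.31 at day 4 (limma adjusted p = 0.00049) and -1.25 ± 0.31 at day 16 (adjusted p = 0.037). Between the mutants, TKO minus *Dnmt1*-/- was -1.79 ± 0.31 at day 4 (limma adjusted p = 0.017) and -3.89 ± 0.31 at day 16 (adjusted p = 7.7e-05). The day 16 call in *Dnmt1*-/- EBs was lost whichever single array of the comparison was left out (-1.10 to -1.41), and the day 4 call between the mutants was lost without *Dnmt1*-/- replicate 2 (-1.13), TKO replicate 1 (-1.65) or TKO replicate 2 (-1.93).

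*Igf2r*, a maternal gene on chromosome 17, read 8.81 and 8.87 in TKO, 9.48 and 9.61 in *Dnmt1*-/-, and 9.61 and 10.35 in wt EBs at day 16. Both TKO arrays lay below all others, while *Dnmt1*-/- and wt arrays met at 9.61. Against wt, TKO EBs differed by -1.14 ± 0.19 (limma adjusted p = 0.0017), a call lost without wt replicate 2 (-0.77). At day 4 the order was another: TKO EBs read 8.97 and 9.06, *Dnmt1*-/- EBs 8.03 and 7.93, and wt EBs 9.06 and 8.97. *Dnmt1*-/- EBs then differed from wt by -1.03 ± 0.19 (limma adjusted p = 0.025) and TKO EBs above *Dnmt1*-/- EBs by 1.03 ± 0.19 (adjusted p = 0.024), both calls lost whichever single array was left out (-0.98 to -1.08 and 0.98 to 1.08).

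Other genes of the Igf pathway were called too. The list held 12 measured receptors, ligands, binding proteins and signal carriers outside the imprinted list. Of these, 6 were lower and none higher in day 16 TKO EBs than in wt EBs (median -1.39), against 5.07% and 2.69% of all genes. They were *Igfbp5* (-4.12), *Igfbp1* (-3.92), *Igfbp7* (-3.41) and *Igfbp4* (-1.90), which bind IGFs in the fluid around cells, the ligand *Igf1* (-2.45) and the insulin receptor *Insr* (-1.32). In day 16 *Dnmt1*-/- EBs *Igf1* (-1.89) and *Igfbp5* (-2.04) were lower (median -0.39), where 2.15% of all genes were lower.

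**Figure D2:**
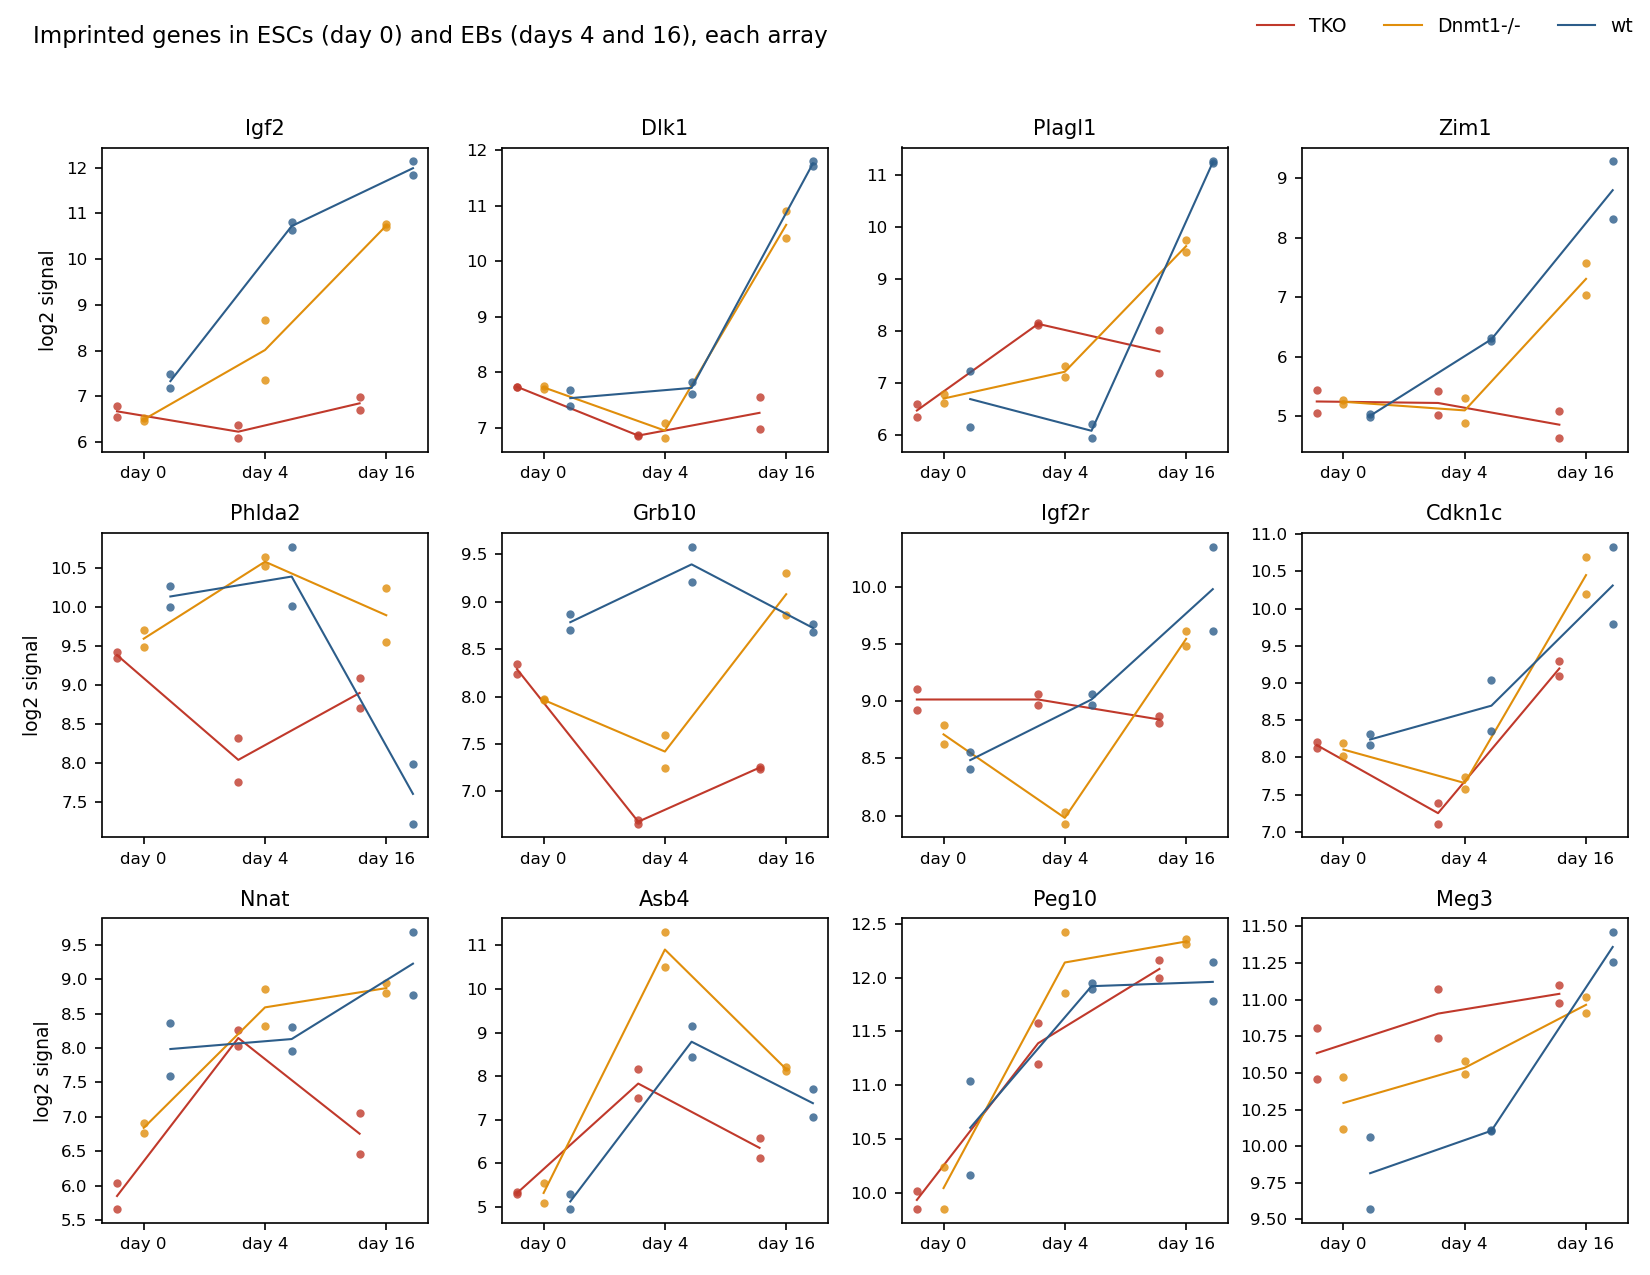
Log2 signal of 12 imprinted genes at day 0, 4 and 16, with 1 point per array and a line through the means of 2 arrays for TKO, *Dnmt1*-/- and wt cells. *Igf2*, *Dlk1*, *Plagl1* and *Zim1* are highest in wt EBs at day 16, with *Dnmt1*-/- EBs next and TKO EBs lowest; *Phlda2* drops in wt EBs at day 16 only.

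The *Dlk1*-*Dio3* cluster on chromosome 12 holds paternal protein-coding genes and maternal non-coding RNAs. *Dlk1*, a transmembrane regulator of adipocyte and muscle differentiation, read 7.74 and 7.73 in TKO, 7.75 and 7.70 in *Dnmt1*-/-, and 7.67 and 7.39 in wt ESCs. At day 4 it read 6.85 and 6.86 in TKO, 7.08 and 6.81 in *Dnmt1*-/-, and 7.82 and 7.61 in wt EBs. At day 16 it read 7.55 and 6.98 in TKO, 10.90 and 10.41 in *Dnmt1*-/-, and 11.72 and 11.80 in wt EBs. Its rise came after day 4 and was confined to *Dnmt1*-/- and wt EBs among these 3 genotypes. The day 16 difference from wt was -4.50 ± 0.20 in TKO EBs (limma adjusted p = 1e-07) and -1.11 ± 0.20 in *Dnmt1*-/- EBs (adjusted p = 0.0062), and TKO EBs differed from *Dnmt1*-/- EBs by -3.39 ± 0.20 (adjusted p = 2.9e-05). The *Dnmt1*-/- call was lost without wt replicate 2 (-1.06) or *Dnmt1*-/- replicate 2 (-0.86).

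The maternal RNAs of the cluster followed another course. *Meg3* read 10.46 and 10.81 in TKO, 10.12 and 10.47 in *Dnmt1*-/-, and 9.57 and 10.06 in wt ESCs. By day 16 it read 11.10 and 10.98 in TKO, 11.02 and 10.91 in *Dnmt1*-/-, and 11.26 and 11.46 in wt EBs. The wt arrays were lowest at day 0 and highest at day 16, and no comparison of *Meg3* with wt at a single day was called (TKO 0.82, 0.80 and -0.32 at day 0, 4 and 16). *Rian*, which carries small nucleolar RNAs, read 8.52 and 8.20 in TKO, 7.90 and 7.68 in *Dnmt1*-/-, and 7.07 and 7.27 in wt EBs at day 4, without overlap. TKO EBs were above wt by 1.19 ± 0.28 (limma adjusted p = 0.023), a call lost whichever single array was left out (1.03 to 1.35).

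*Dio3*, which inactivates thyroid hormone, read 4.86 and 5.08 in TKO, 6.34 and 5.34 in *Dnmt1*-/-, and 5.25 and 5.26 in wt EBs at day 16. Its groups differed by less than the threshold between genotypes (TKO -0.29, *Dnmt1*-/- 0.59 against wt). It rose from day 4 to day 16 by 1.68 ± 0.29 in *Dnmt1*-/- EBs (limma adjusted p = 0.005) and by 1.00 ± 0.29 in wt EBs (adjusted p = 0.038). These signals were low: every array but *Dnmt1*-/- replicate 1 at day 16 lay below the lowest array median of 5.77. The wt means were 4.82, 4.25 and 5.25 at day 0, 4 and 16, so the wt rise began from a dip. *Rtl1*, a paternal gene needed in the placenta, was called in no comparison.

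The *Kcnq1* cluster on chromosome 7 holds maternal genes, some of which hold back growth. *Cdkn1c*, which encodes the cell cycle inhibitor p57, read 7.39 and 7.11 in TKO, 7.57 and 7.74 in *Dnmt1*-/-, and 8.35 and 9.04 in wt EBs at day 4. At day 16 it read 9.09 and 9.30 in TKO, 10.70 and 10.20 in *Dnmt1*-/-, and 9.79 and 10.83 in wt EBs. Both mutants lay below wt at day 4, and only the TKO arrays lay below wt at day 16. TKO EBs differed from wt by -1.44 ± 0.30 at day 4 (limma adjusted p = 0.014) and -1.11 ± 0.30 at day 16 (adjusted p = 0.029). *Dnmt1*-/- EBs differed by -1.04 at day 4 with a limma adjusted p of 0.3, and by 0.14 at day 16. The day 4 TKO call was lost without wt replicate 2 (-1.10), TKO replicate 1 (-1.58) or TKO replicate 2 (-1.30), and the day 16 call without the same 3 replicates (-0.59, -1.01 and -1.22).

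*Phlda2*, a PH domain protein that restrains placental growth, differed from wt in opposite directions at day 4 and day 16 of TKO differentiation. At day 4 it read 7.76 and 8.33 in TKO, 10.64 and 10.52 in *Dnmt1*-/-, and 10.01 and 10.77 in wt EBs. At day 16 it read 9.09 and 8.71 in TKO, 10.24 and 9.55 in *Dnmt1*-/-, and 7.99 and 7.23 in wt EBs. The TKO arrays were the lowest of all at day 4, and the wt arrays were the lowest of all at day 16. TKO EBs differed from wt by -2.35 ± 0.32 at day 4 (limma adjusted p = 0.00087) and by 1.29 ± 0.32 at day 16 (adjusted p = 0.017). *Dnmt1*-/- EBs were above wt by 2.28 ± 0.32 at day 16 (limma adjusted p = 0.00085), and TKO EBs differed from *Dnmt1*-/- EBs by -2.54 ± 0.32 at day 4 (adjusted p = 0.0039). The day 16 TKO call was lost without wt replicate 2 (0.91) or TKO replicate 1 (1.10). *Slc22a18*, *Kcnq1*, *Tssc4*, *Cd81* and *Osbpl5* of the same region were called in no comparison, although *Osbpl5* came close at day 16 (TKO -0.82, *Dnmt1*-/- -0.96 against wt).

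*Grb10* on chromosome 11 encodes an adaptor that dampens insulin and IGF signalling. At day 4 it read 6.66 and 6.70 in TKO, 7.25 and 7.59 in *Dnmt1*-/-, and 9.21 and 9.58 in wt EBs. Day 16 signals were 7.26 and 7.24 in TKO, 9.30 and 8.86 in *Dnmt1*-/-, and 8.68 and 8.77 in wt EBs. TKO arrays were lowest at both days, whereas *Dnmt1*-/- arrays were low at day 4 and the highest at day 16. Against wt, TKO EBs differed by -2.72 ± 0.17 at day 4 (limma adjusted p = 4.1e-06) and -1.47 ± 0.17 at day 16 (adjusted p = 0.00011). *Dnmt1*-/- EBs differed by -1.98 ± 0.17 at day 4 (limma adjusted p = 3.1e-05) and by 0.36 at day 16, which was not called. The TKO difference from *Dnmt1*-/- EBs at day 16 was -1.83 ± 0.17 (limma adjusted p = 0.00036).

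*Plagl1* on chromosome 10 encodes a zinc finger factor that is itself known to regulate several imprinted genes. It read 6.59 and 6.35 in TKO, 6.79 and 6.61 in *Dnmt1*-/-, and 7.22 and 6.16 in wt ESCs. At day 4 it read 8.11 and 8.16 in TKO, 7.32 and 7.11 in *Dnmt1*-/-, and 6.22 and 5.94 in wt EBs. Day 16 signals were 8.01 and 7.20 in TKO, 9.74 and 9.52 in *Dnmt1*-/-, and 11.22 and 11.26 in wt EBs. The genotypes were thus ordered TKO, *Dnmt1*-/-, wt from high to low at day 4 and in reverse at day 16, with no overlap. TKO EBs differed from wt by 2.06 ± 0.30 at day 4 (limma adjusted p = 0.0016) and by -3.63 ± 0.30 at day 16 (adjusted p = 6.1e-06). *Dnmt1*-/- EBs differed by 1.13 at day 4, which was not called (adjusted p = 0.21 in limma), and by -1.61 ± 0.30 at day 16 (adjusted p = 0.0074). TKO minus *Dnmt1*-/- was -2.02 ± 0.30 at day 16 (limma adjusted p = 0.0061). The *Dnmt1*-/- call was lost without wt replicate 2 (-1.59) or *Dnmt1*-/- replicate 2 (-1.50), and the call between the mutants without *Dnmt1*-/- replicate 1 (-1.91) or TKO replicate 2 (-1.62).

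The *Peg3* cluster on chromosome 7 holds zinc finger genes. *Peg3*, a paternal gene, read 9.89 and 10.40 in TKO, 10.76 and 11.37 in *Dnmt1*-/-, and 11.20 and 11.42 in wt EBs at day 4. By day 16 it had 10.68 and 10.28 in TKO, 11.13 and 11.19 in *Dnmt1*-/-, and 11.78 and 11.97 in wt EBs. Its signal was higher in EBs than in ESCs of every genotype, and lowest in TKO at both EB days. TKO EBs differed from wt by -1.17 ± 0.26 at day 4 (limma adjusted p = 0.018) and by -1.40 ± 0.26 at day 16 (adjusted p = 0.0029), and the day 4 call was lost without wt replicate 1 (-1.28), wt replicate 2 (-1.06) or TKO replicate 1 (-0.91). Maternal *Zim1* read 5.08 and 4.63 in TKO, 7.57 and 7.04 in *Dnmt1*-/-, and 8.31 and 9.28 in wt EBs at day 16, against 4.98 to 5.44 over the 6 ESC arrays. Its TKO arrays were still within or below the ESC range. The difference from wt was -3.94 ± 0.30 in TKO (limma adjusted p = 2.6e-06) and -1.49 ± 0.30 in *Dnmt1*-/- EBs (adjusted p = 0.011), and TKO EBs differed from *Dnmt1*-/- EBs by -2.45 ± 0.30 (adjusted p = 0.0019). The *Dnmt1*-/- call was lost without wt replicate 2 (-1.00) or *Dnmt1*-/- replicate 2 (-1.22). *Usp29*, which lies head to head with *Peg3*, was called in no comparison (TKO -0.71 and *Dnmt1*-/- -0.91 against wt at day 16).

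The *Snrpn* cluster on chromosome 7 carries paternal genes whose loss in people is linked to Prader-Willi syndrome. *Ndn*, a growth suppressor of neurons, read 8.95 and 8.51 in TKO, 9.78 and 9.84 in *Dnmt1*-/-, and 10.49 and 9.99 in wt EBs at day 16. In TKO EBs the difference from wt was -1.51 ± 0.23 (limma adjusted p = 0.00076) and that from *Dnmt1*-/- EBs was -1.08 ± 0.23 (adjusted p = 0.035), after nearly equal levels in all genotypes at day 4 (TKO -0.02 against wt). *Magel2*, a partner of ubiquitin ligases, read 8.0 and 8.16 in TKO, 7.11 and 6.87 in *Dnmt1*-/-, and 6.26 and 6.92 in wt EBs at day 4. Its TKO arrays stood above the rest at that day only. TKO EBs were above wt by 1.49 ± 0.21 (limma adjusted p = 0.0011) and above *Dnmt1*-/- EBs by 1.09 ± 0.21 (adjusted p = 0.028), while at day 16 the difference from wt was 0.12. The *Ndn* call between the mutants was lost without *Dnmt1*-/- replicate 1 (-1.11), *Dnmt1*-/- replicate 2 (-1.04) or TKO replicate 2 (-0.86), and the *Magel2* one without *Dnmt1*-/- replicate 2 (0.96), TKO replicate 1 (1.17) or TKO replicate 2 (1.00).

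The *Peg10* cluster on chromosome 6 held genes with differing courses. *Peg10*, derived from a retrotransposon and needed for the placenta, was called in no comparison between genotypes. It read 12.16 and 12.00 in TKO, 12.36 and 12.31 in *Dnmt1*-/-, and 11.78 and 12.14 in wt EBs at day 16, and rose from day 0 in each by 2.14 ± 0.27 (limma adjusted p = 0.00075), 2.29 ± 0.27 (adjusted p = 0.00012) and 1.35 ± 0.27 (adjusted p = 0.0025). Its neighbour *Sgce*, a sarcoglycan, read 8.80 and 8.38 in TKO, 9.51 and 9.40 in *Dnmt1*-/-, and 9.68 and 9.70 in wt EBs at day 16. The TKO arrays were lowest, and the difference from wt was -1.10 ± 0.21 (limma adjusted p = 0.0043), a call lost without TKO replicate 2 (-0.89).

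*Asb4*, a maternal gene for an ankyrin repeat protein of vascular development, peaked at day 4. It then read 7.49 and 8.17 in TKO, 11.30 and 10.51 in *Dnmt1*-/-, and 8.43 and 9.15 in wt EBs. The *Dnmt1*-/- arrays were far above the rest. *Dnmt1*-/- EBs were above wt by 2.12 ± 0.34 (limma adjusted p = 0.0074), a call lost without wt replicate 1 (1.76) or *Dnmt1*-/- replicate 1 (1.72). TKO EBs differed from *Dnmt1*-/- EBs by -3.07 ± 0.34 at day 4 (limma adjusted p = 0.002) and by -1.80 ± 0.34 at day 16 (adjusted p = 0.02). The day 16 call was lost without *Dnmt1*-/- replicate 1 (-1.84), *Dnmt1*-/- replicate 2 (-1.77) or TKO replicate 2 (-1.58).

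*Calcr*, the calcitonin receptor, read 7.72 and 7.28 in TKO, 5.82 and 5.68 in *Dnmt1*-/-, and 5.97 and 6.16 in wt EBs at day 4. At day 16 it read 6.49 and 6.01 in TKO, 5.17 and 5.60 in *Dnmt1*-/-, and 4.88 and 5.08 in wt EBs. The TKO arrays were highest at both days, by 1.43 ± 0.24 (limma adjusted p = 0.003) and 1.27 ± 0.24 (adjusted p = 0.0031) against wt, and by 1.75 ± 0.24 against *Dnmt1*-/- at day 4 (adjusted p = 0.0061), a call lost without *Dnmt1*-/- replicate 2 (1.68). The paraoxonase genes *Pon2* and *Pon3* were lower in TKO than in wt EBs at day 16, with differences of -1.47 ± 0.33 (limma adjusted p = 0.01) and -1.12 ± 0.22 (adjusted p = 0.004). *Pon2* then read 6.93 and 6.24 in TKO, 7.58 and 6.98 in *Dnmt1*-/-, and 8.31 and 7.80 in wt EBs. *Pon3* read 5.32 and 4.88 in TKO, 6.42 and 5.92 in *Dnmt1*-/-, and 6.33 and 6.12 in wt EBs, so that TKO overlapped neither of the other genotypes. *Pon3* in TKO also differed from *Dnmt1*-/- EBs, by -1.06 ± 0.22 (limma adjusted p = 0.029). Calls were lost without wt replicate 1 (*Pon2*, -1.21) or TKO replicate 2 (*Pon2*, -1.12, and *Pon3*, -0.90), and the *Pon3* call between the mutants without *Dnmt1*-/- replicate 1 (-0.82) or TKO replicate 2 (-0.85).

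*Nnat* on chromosome 2 encodes neuronatin, a small membrane proteolipid, and was the one member called at day 0. It read 5.66 and 6.04 in TKO, 6.77 and 6.91 in *Dnmt1*-/-, and 8.37 and 7.60 in wt ESCs, without overlap. At day 4 all genotypes lay between 7.96 and 8.86. At day 16 it read 7.05 and 6.46 in TKO, 8.80 and 8.94 in *Dnmt1*-/-, and 9.68 and 8.77 in wt EBs. TKO cells differed from wt by -2.13 ± 0.33 at day 0 (limma adjusted p = 0.014), 0.02 at day 4 and -2.47 ± 0.33 at day 16 (adjusted p = 0.00027). They differed from *Dnmt1*-/- EBs by -2.11 ± 0.33 at day 16 (limma adjusted p = 0.0073). The day 0 call was lost without wt replicate 1 (-1.75) or TKO replicate 1 (-1.94), and the call between the mutants without *Dnmt1*-/- replicate 1 (-2.18) or TKO replicate 2 (-1.82).

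*Slc38a4*, an amino acid transporter, read 10.83 and 11.18 in TKO, 11.32 and 12.20 in *Dnmt1*-/-, and 12.09 and 12.26 in wt EBs at day 4. The TKO difference from wt was -1.17 ± 0.23 (limma adjusted p = 0.0082), a call lost without wt replicate 2 (-1.09) or TKO replicate 1 (-1.00). *Mest*, a hydrolase of mesodermal tissue, was called in no comparison of genotypes. It read 11.68 and 11.11 in TKO, 12.13 and 12.25 in *Dnmt1*-/-, and 12.29 and 11.56 in wt EBs at day 16 (TKO -0.53, with a 95% interval of -1.14 to 0.08, against wt). Both TKO arrays lay below both *Dnmt1*-/- arrays, by -0.79 (95% interval -1.40 to -0.18, limma adjusted p = 0.21). In all, 13 of the 36 measured members were called in no comparison of genotypes or days. The same share over all genes is not given here. Among the 13, the median signals of *Mkrn3* (5.63), *Rtl1* (5.55), *Kcnq1* (5.4) and *Nap1l5* (5.28) lay below the lowest array median of 5.77. So did those of *Slc22a2* (5.01), *Rasgrf1* (4.81) and *Usp29* (4.79). The rest lay higher, from *Osbpl5* (5.96) to *Impact* (10.75) and *Cd81* (11). Whether low signal hid changes in the dim members was not tested.

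The timing of the changes was compared within each genotype. From day 0 to day 4, 10 members rose and 2 fell in TKO (2.71% and 1.16% of all genes), 8 rose and none fell in *Dnmt1*-/- (2.93% and 2.72%), and 9 rose and none fell in wt cells (3.02% and 2.77%). From day 4 to day 16, 2 rose and 4 fell in TKO (1.09% and 0.742%), 8 rose and 1 fell in *Dnmt1*-/- (3.64% and 0.421%), and 10 rose and 3 fell in wt EBs (6.11% and 2.18%). The early counts were of a like size in the 3 genotypes, and the later ones were not. *Peg3*, *Sgce* and *Asb4* rose in the early wave in each genotype, and *Asb4* rose by 2.52 ± 0.34 in TKO, 5.58 ± 0.34 in *Dnmt1*-/- and 3.67 ± 0.34 in wt cells (limma adjusted p = 0.00091, 1.1e-05 and 3.7e-05). *Sgce* rose further after day 4. Its means at day 4 and day 16 were 7.58 and 8.59 in TKO, 8.48 and 9.46 in *Dnmt1*-/-, and 8.56 and 9.69 in wt EBs. *Plagl1* and *Dlk1* belonged to the late wave of wt EBs, at 5.16 ± 0.30 and 4.04 ± 0.20 (limma adjusted p = 5.9e-07 and 1.9e-07).

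**Figure D3:**
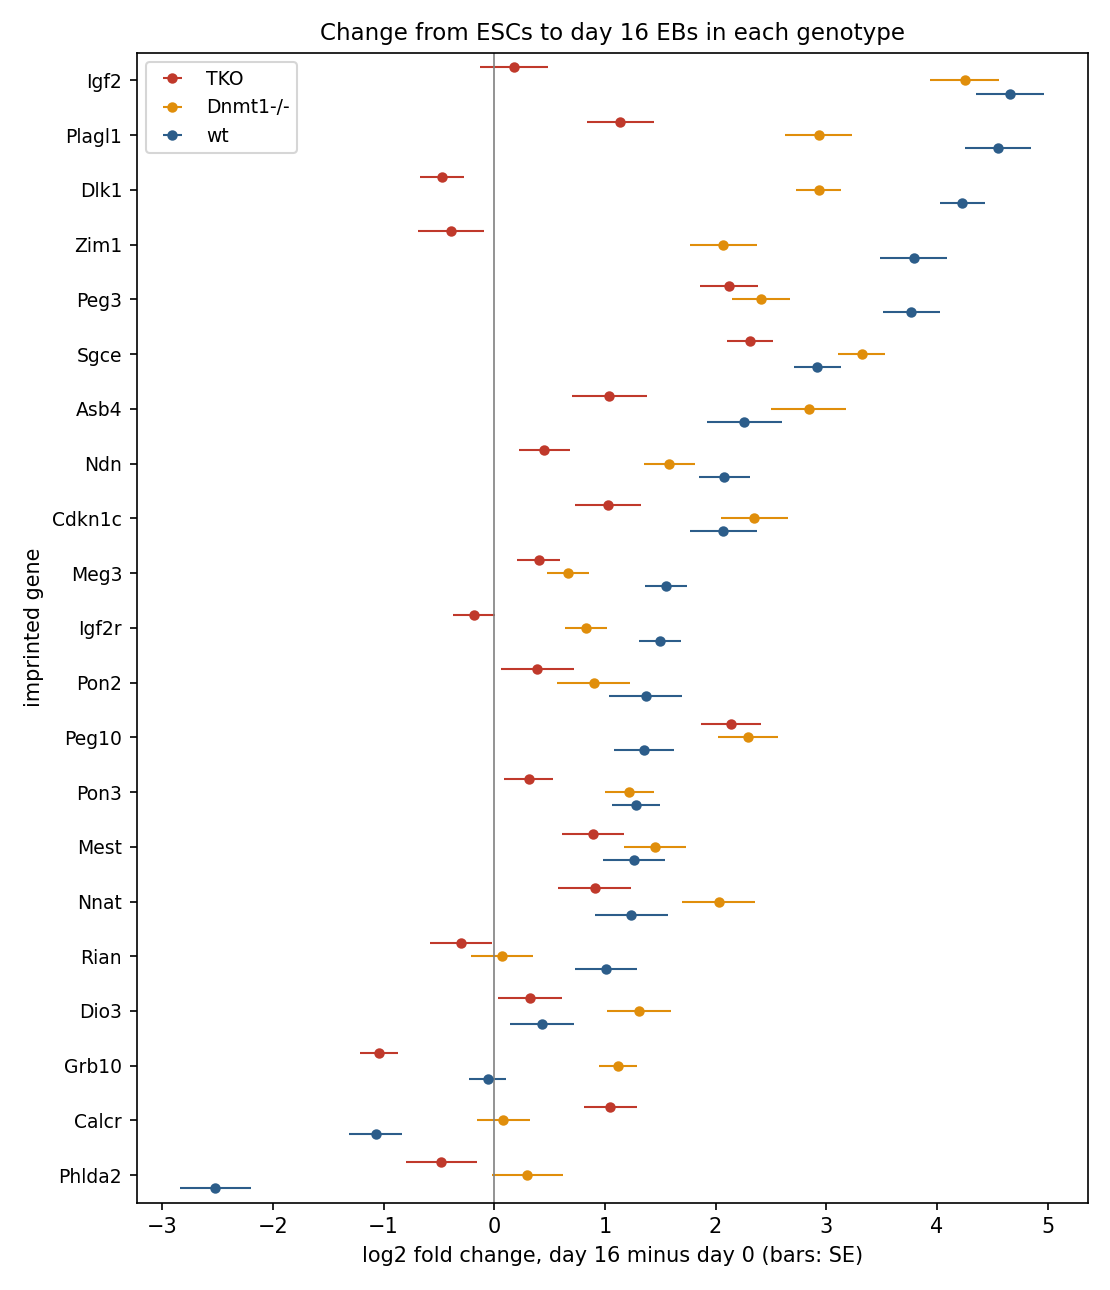
Points give the log2 change from day 0 to day 16 in TKO, *Dnmt1*-/- and wt cells, with SE bars, for the members called in at least 1 genotype. *Igf2*, *Dlk1* and *Zim1* stand at 0.18, -0.47 and -0.39 in TKO against 4.66, 4.23 and 3.79 in wt cells, while *Peg10* stands at 2.14 in TKO and 1.35 in wt cells.

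The difference between genotypes in this change was tested itself. From day 0 to day 16, the change was lower in TKO than in wt cells for 8 members and higher for 2 (3.37% and 1.88% of all genes). *Dlk1* differed by -4.70 ± 0.29 (limma adjusted p = 8.3e-06), *Igf2* by -4.48 ± 0.45 (adjusted p = 0.00015) and *Zim1* by -4.18 ± 0.42 (adjusted p = 0.00016). Between *Dnmt1*-/- and wt cells 1 member was lower and 2 were higher (1.2% and 0.582%).

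Lists of cell type markers were read beside these results, and not all lists ordered the genotypes alike. In day 16 EBs the mean log2 signal of 10 pluripotency genes was 10.23 and 10.22 in TKO, 9.22 and 8.97 in *Dnmt1*-/-, and 7.63 and 7.27 in wt arrays, against 10.61 to 10.95 over the ESC arrays. That of 10 genes of mesoderm and stroma was 7.12 and 6.52 in TKO, 8.87 and 8.55 in *Dnmt1*-/-, and 10.01 and 10.05 in wt arrays. The order of the genotypes in both lists was that seen for *Igf2*, *Dlk1*, *Plagl1* and *Zim1* at day 16 or its reverse. The day 16 means of *Igf2r*, *Peg3*, *Ndn*, *Nnat*, *Sgce*, *Pon2* and *Pon3* also rose from TKO over *Dnmt1*-/- to wt EBs, and that of *Calcr* fell. Those of *Phlda2*, *Grb10*, *Cdkn1c*, *Asb4* and *Peg10* had other orders, though *Asb4* and *Peg10* were not called against wt at day 16. In day 16 TKO EBs 9 of 10 pluripotency genes were higher (median 3.06) and 8 of 10 stromal genes lower than in wt EBs (median -3.23). In *Dnmt1*-/- EBs 6 of 10 were higher (median 1.69) and 5 of 10 lower (median -1.46). Over all genes, 2.69% were higher and 5.07% lower in TKO, and 1.49% and 2.15% in *Dnmt1*-/- EBs. Of 8 cardiac muscle genes 5 were lower in TKO and 2 in *Dnmt1*-/- EBs than in wt EBs. Of 7 measured trophoblast genes 1 was higher and 1 lower in TKO EBs, and of 8 neural genes none was called in either mutant. Limma gave an unadjusted p under 0.05 for 2 neural genes in TKO and 1 in *Dnmt1*-/- EBs. Among all 19938 genes, 6067 and 4120 had such a p. The 10 visceral endoderm genes averaged 8.75 and 8.23 in TKO, 10.04 and 9.53 in *Dnmt1*-/-, and 9.32 and 8.78 in wt EBs. At day 4 pluripotency genes averaged 9.75 and 10.11 in TKO, 8.97 and 7.64 in *Dnmt1*-/-, and 7.38 and 7.37 in wt EBs. Members differed between the 2 *Dnmt1*-/- arrays of that day in both directions. Replicates 1 and 2 read 7.35 and 8.68 for *Igf2*, and 11.30 and 10.51 for *Asb4*. The part of these lists in the imprinted gene results was not tested.

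**Figure D4:**
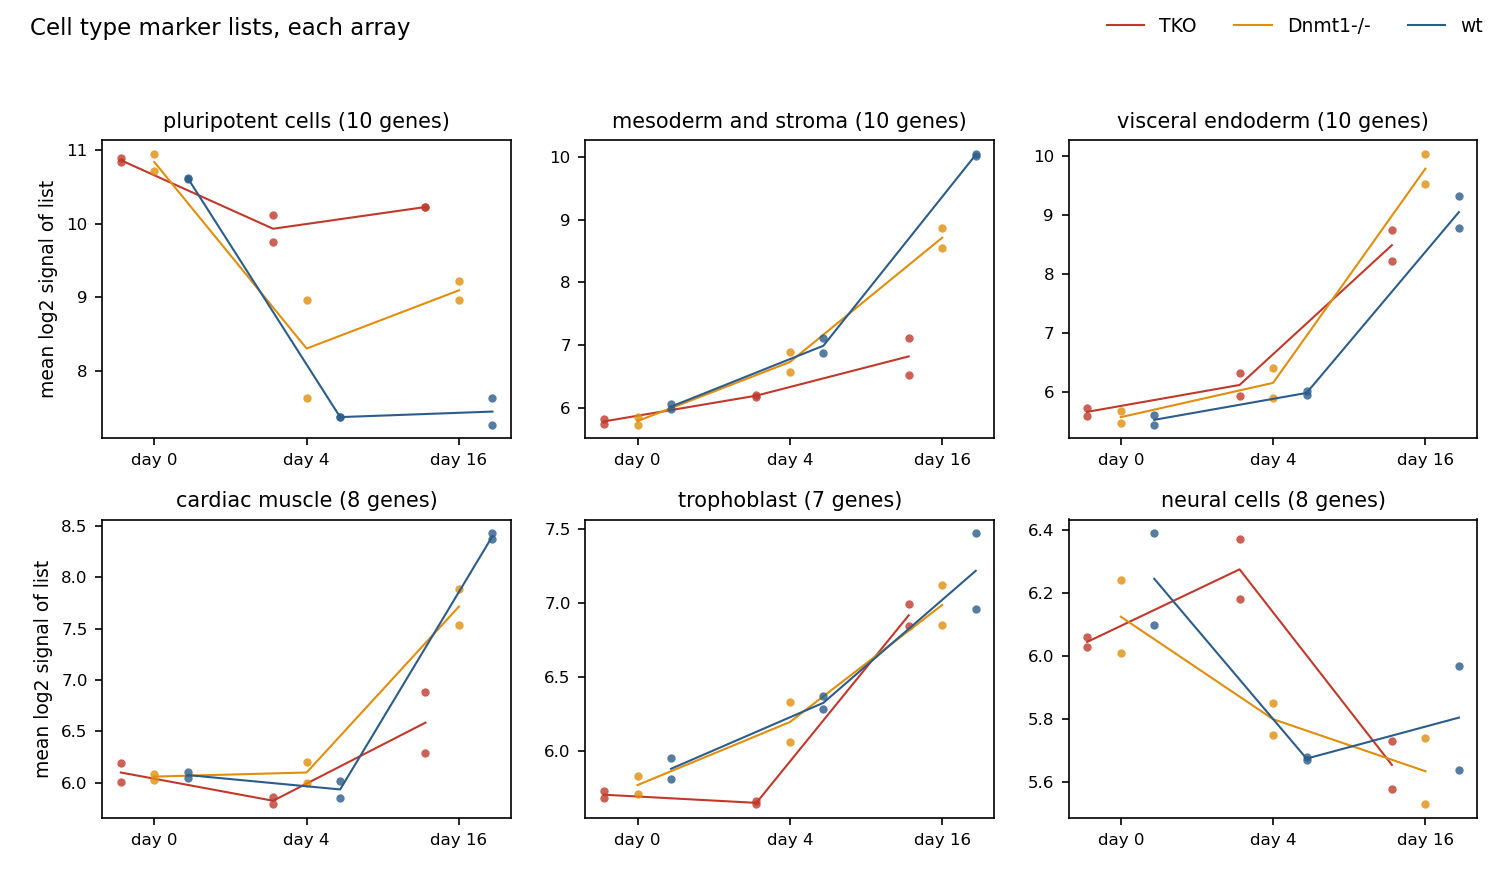
Mean log2 signal of 6 lists of cell type markers at day 0, 4 and 16, with 1 point per array and lines through the means of TKO, *Dnmt1*-/- and wt cells. At day 16 TKO arrays are highest for pluripotent cells (10.22 and 10.23) and lowest for mesoderm and stroma (6.52 and 7.12).

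Genes that write or protect the imprint were read as a separate list. *Dnmt1* signals were 8.40 to 8.75 in TKO, 8.45 to 8.86 in *Dnmt1*-/- and 9.16 to 9.77 in wt arrays, so the targeted gene was lower in every mutant array, though its probes still gave signal. Of 13 measured factors, 4 were higher in day 16 TKO EBs than in wt EBs and 1 lower (2.69% and 5.07% of all genes). The higher ones were *Dnmt3l*, a cofactor of de novo methylation (4.47), the oocyte and ESC factor *Dppa3* (1.92), the chromatin remodeller *Hells* (1.36) and *Zfp57*, which protects imprints (1.05). The lower one was the deleted gene *Dnmt3a* (-2.18). *Dnmt3b*, also deleted in TKO, was lower in TKO than wt cells at day 0 (-2.52 ± 0.24, limma adjusted p = 0.00038). In EBs *Dnmt3b* was not called between TKO and wt. It read 8.88 and 8.58 in TKO and 9.04 and 9.70 in wt EBs at day 4, without overlap. At day 16 it read 7.52 and 7.71 in TKO, 8.85 and 8.87 in *Dnmt1*-/-, and 7.16 and 7.41 in wt EBs. TKO EBs then lay below *Dnmt1*-/- EBs (-1.25 ± 0.24, limma adjusted p = 0.023) but not below wt EBs. In day 16 *Dnmt1*-/- EBs *Dnmt3l* (2.84), *Dnmt3b* (1.58) and *Hells* (1.06) were higher than in wt EBs, as were 1.49% of all genes. In wt cells 7 of the 13 fell from day 0 to day 16 (5.67% of all genes), among them *Dnmt3l* (-4.30) and *Zfp57* (-1.91).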

How the data were processed

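Total RNA of 18 samples was hybridised to Affymetrix Mouse Gene 1.0 ST arrays. Per the labels, the authors normalised the arrays with RMA, and the deposited values are log2 signals of 35512 probe sets. For the RMA version, the probe annotation and any filter, nothing is stated in the sources used here. Symbols came from the platform's probe annotation: 21789 probe sets name 1 gene, 1621 several and 12102 none, and for each of the 19938 genes with a probe set of its own the brightest one was kept. The lowest and highest signals were 1.21 and 14.01, the medians of single arrays lay at 5.77 to 5.90, and the arrays of a group correlated at 0.981 to 0.991.

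A mean per genotype and day was fitted over all 18 arrays by the linear models of limma 3.58.1 under R 4.3.3, moderated by eBayes, with 9 residual degrees of freedom, no batch term and no filter. Having 2 arrays per group limits the precision, and the SE of a log2 difference had a median of 0.203 over all probe sets. Thresholds followed the methods of the study (2-fold, false discovery rate 0.05). The labels call replicates biological, so p-values measure the spread between them. Alternatives were each array left out, the dimmest 30% of probe sets left out, only the arrays compared in the fit, moderation with a trend, a replicate block, and other adjustments of p. The members and lists were chosen with earlier results of these data known. Members of the clusters were named when called in any comparison, other members when called between genotypes. The cell type markers, Igf pathway, imprint maintenance and other imprinted gene lists were written by hand, and *Igf2*, *Dlk1* and others also appear in the study's own lists.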

Additional observations from a re-analysis of the deposited data

Results flagged for a closer look

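The change from day 0 to day 16 differed between genotypes for 10 members in TKO cells and 3 in *Dnmt1*-/- cells, tested as a difference of changes in limma (mutant change minus wt change, log2, ± SE). In TKO cells it was -4.70 ± 0.29 for *Dlk1*, -4.48 ± 0.45 for *Igf2*, -4.18 ± 0.42 for *Zim1*, -3.41 ± 0.43 for *Plagl1*, -1.67 ± 0.27 for *Igf2r*, -1.66 ± 0.36 for *Peg3*, -1.63 ± 0.32 for *Ndn* and -1.15 ± 0.27 for *Meg3*. It was 2.12 ± 0.33 for *Calcr* and 2.04 ± 0.45 for *Phlda2* in the same cells. *Calcr* rose by 1.05 ± 0.24 in TKO and fell by 1.07 in wt cells, so the 2 genotypes moved in opposite directions. *Phlda2* changed by -0.48 in TKO cells, which was not called, and by -2.52 in wt cells. The limma adjusted p of these 10 ranged from 8.3e-06 for *Dlk1* to 0.03 for *Meg3*.

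In *Dnmt1*-/- cells the difference was 2.82 ± 0.45 for *Phlda2* (limma adjusted p = 0.011), 1.18 ± 0.24 for *Grb10* (adjusted p = 0.034) and -1.30 ± 0.29 for *Dlk1* (adjusted p = 0.048). *Grb10* changed by 1.12 ± 0.17 in *Dnmt1*-/- cells and by -0.06 in wt cells, and by -1.04 ± 0.17 in TKO cells.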

How the results depend on the processing

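No named call of the 50 between genotypes reversed, 24 were kept whichever single array was left out and 18 under all 8 other settings. The study ran its arrays as separate experiments, but no source used here ties a replicate number to one of them: 32 of 36 pairs of groups had replicate differences that correlated above 0.1 (0.04 to 0.5), and with a replicate block as a term 15 members were called in day 16 TKO against wt EBs, as without it, 7 (without it 5) in TKO from day 0 to day 16, and 10 (9) between day 16 TKO and *Dnmt1*-/- EBs. The block ended none of the 50 named calls. With only the arrays compared in the fit, which leaves fewer degrees of freedom, fewer members were called: 1 and 1 in *Dnmt1*-/- against wt at day 4 and day 16, 0 and 8 in TKO against wt at day 0 and day 16, 0 and 1 in TKO against *Dnmt1*-/- at day 4 and day 16, 2 and 3 in TKO from day 4 and from day 0 to day 16, and 0 and 6 for the difference in change of *Dnmt1*-/- and TKO from wt. With 1 adjustment of p over all comparisons the *Dnmt1*-/- difference in change gave 7 members (3 otherwise). Without a single array the counts of members called ran as follows. In *Dnmt1*-/- against wt they ran from 0 to 0, 2 to 3 and 1 to 4 at day 0, 4 and 16, and in TKO against wt from 0 to 1, 6 to 8 and 11 to 14. In TKO against *Dnmt1*-/- they ran from 0 to 0, 2 to 6 and 4 to 9. Over the intervals day 0 to 4, 4 to 16 and 0 to 16 they ran from 8 to 10, 1 to 4 and 3 to 6 in TKO, 6 to 9, 8 to 9 and 12 to 15 in *Dnmt1*-/-, and 7 to 8, 9 to 11 and 14 to 20 in wt cells. For the differences in change they ran from 1 to 3 in *Dnmt1*-/- and 7 to 11 in TKO. A lone array was assumed to vary like the other groups. No member was among the dimmest probe sets left out. The arrays limit this work to 2 samples per group, cover 36 of 44 members and do not separate the parental copies.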

Other observations

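Of 29 measured imprinted genes outside the list of 44, 2 were higher and 4 lower in day 16 TKO than wt EBs (2.69% and 5.07% of all genes), with a median of -0.02 against 0.03 over all genes. *Dcn*, which encodes the matrix proteoglycan decorin, differed by -6.60 ± 0.30 (limma adjusted p = 1e-07), the chloride channel gene *Ano1* by -2.97 ± 0.22 (adjusted p = 2.6e-06), the dopa decarboxylase gene *Ddc* by -1.68 ± 0.22 (adjusted p = 0.00026) and *Casd1* by -1.32 ± 0.24 (adjusted p = 0.0026). *Ascl2*, a factor of the placental trophoblast, was higher by 1.33 ± 0.24 (limma adjusted p = 0.0027) and the phospholipid transporter gene *Atp10a* by 1.15 ± 0.28 (adjusted p = 0.015). In day 16 *Dnmt1*-/- EBs *Dcn* (-2.17) and *Ano1* (-1.73) were lower and *Sfmbt2*, a Polycomb gene, was higher (1.11). Of all genes, 2.15% were lower and 1.49% higher there. From day 0 to day 16 of wt cells *Dcn* rose by 6.99 ± 0.30 and *Ano1* by 3.34 ± 0.22, and *Airn*, the non-coding RNA that represses *Igf2r* in cis, rose by 2.65 ± 0.58 (limma adjusted p = 0.0046).

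The following 3 comparisons of changes between genotypes were added after the values were seen. Between day 4 and day 16 the change in TKO minus that in wt EBs was -5.69 ± 0.43 for *Plagl1* (limma adjusted p = 2.3e-05) and 3.64 ± 0.45 for *Phlda2* (adjusted p = 0.00067). Between day 0 and day 4 it was -3.83 for *Igf2* (limma adjusted p = 0.0036) and 2.28 for *Plagl1* (adjusted p = 0.024). For *Dnmt1*-/- minus wt over day 0 to day 4 no member was called; *Grb10* had the lowest p (-1.15 ± 0.24, limma adjusted p = 0.17), and *Igf2* differed by -1.86 ± 0.45 (adjusted p = 0.29).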
